A study of Homo sapiens with 18 samples.

Results

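The SLIT-ROBO and netrin guidance genes examined here were SLIT1, SLIT2, SLIT3, ROBO1, ROBO2, NTN1, NTN4, DCC, UNC5A and UNC5C, chosen by name as 10 of the 28063 genes counted in human neuroblastoma cells. Newly made messenger RNA was measured in the neuroblastoma lines SK-N-DZ, KELLY and IMR-32, all long established, after loss of activity of SMARCA4, the ATPase that drives the BAF chromatin remodelling complex. Non-engineered cells of each line, labelled WT, received 1 uM BRM014, an inhibitor of SMARCA4 and of its paralogue SMARCA2, or an equal volume of DMSO. Engineered SMARCA4-mAID cells, in which SMARCA4 carries an auxin-inducible degron, received auxin (indole acetic acid, 500 uM) or ethanol, and their source is labelled IMR-32. The engineered line may be 1 clone, which the labels do not say, and the length of exposure to BRM014 or auxin is not stated in the labels. All of these groups were given 500 uM 4-thiouridine (4sU), a uridine analogue that marks new RNA, for 2 h before harvest, and 2 further KELLY libraries were left unlabelled. There were 9 groups of 2 libraries.

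SLIT proteins are secreted ligands that repel growing axons and migrating cells through ROBO receptors, and the pair guides commissural axons away from the midline once they have crossed it. Netrins are secreted, laminin-related proteins: DCC mediates attraction towards netrin-1, and the UNC5 receptors mediate repulsion. DCC and the UNC5 proteins are also described as dependence receptors, which can promote cell death when no netrin is bound. Neuroblastoma arises from the sympathoadrenal lineage of the neural crest, whose migrating cells meet SLIT and netrin signals in the embryo.

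The results turn mainly on ROBO1, ROBO2 and SLIT3, which moved with BRM014 in KELLY and SK-N-DZ, so the sequences upstream of their annotated starts are shown here. RefSeq promoter windows (GRCh38.p14) matched 9 of the 10 genes. From each window of ROBO1, ROBO2 and SLIT3 the 250 bases before the start are printed where they overlap no exon of the gene in GENCODE 29. They run in the direction of transcription, 5′ to 3′. ROBO1 has 2 annotated starts, a distal one with the window chr3:79767999-79768248 (minus strand) and a proximal one with chr3:79019460-79019709 (minus strand). ROBO2 is shown at the first of 2 annotated starts, chr3:76310630-76310879 (plus strand), and SLIT3 at chr5:169301140-169301389 (minus strand). Capitals mark matches to the 5 motifs searched on both strands, and ATTGG and TTATC are the reverse complements of CCAAT and GATAA.
ROBO1 distal: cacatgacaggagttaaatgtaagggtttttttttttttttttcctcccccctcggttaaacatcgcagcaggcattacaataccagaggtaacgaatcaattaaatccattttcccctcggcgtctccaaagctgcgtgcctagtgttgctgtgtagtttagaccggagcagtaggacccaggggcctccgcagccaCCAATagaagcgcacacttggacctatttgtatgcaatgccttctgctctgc
ROBO1 proximal: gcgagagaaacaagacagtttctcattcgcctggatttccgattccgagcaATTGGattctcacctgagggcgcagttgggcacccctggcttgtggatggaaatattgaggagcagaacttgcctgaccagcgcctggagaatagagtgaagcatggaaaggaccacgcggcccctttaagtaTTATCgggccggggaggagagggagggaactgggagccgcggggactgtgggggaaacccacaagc
ROBO2 upstream: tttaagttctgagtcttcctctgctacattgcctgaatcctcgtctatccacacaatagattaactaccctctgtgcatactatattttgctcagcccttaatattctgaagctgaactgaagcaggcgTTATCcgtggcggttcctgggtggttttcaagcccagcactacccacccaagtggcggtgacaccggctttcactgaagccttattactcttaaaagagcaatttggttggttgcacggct
SLIT3: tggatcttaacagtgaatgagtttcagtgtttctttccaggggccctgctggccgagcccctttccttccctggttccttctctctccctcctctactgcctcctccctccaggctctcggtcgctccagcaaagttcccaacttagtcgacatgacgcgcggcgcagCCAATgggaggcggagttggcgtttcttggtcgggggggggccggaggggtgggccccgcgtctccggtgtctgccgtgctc

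CCAAT occurred in both ROBO1 windows and in the SLIT3 window, and 32% of all 35116 windows of this length hold it. GATAA occurred in the proximal ROBO1 window and in the ROBO2 window, against 20.4% of all windows. None of these 4 windows held the E-box CACGTG, which 6.34% of all windows hold. Nor did any hold the TATA box motif TATAAA, found in 10.7% of windows, or the AP-1 motif TGANTCA, found in 6.57%. The GC content was 48.0% and 56.8% in the ROBO1 windows, 46.8% in the printed ROBO2 window and 62.8% in the SLIT3 window, and the second ROBO2 window, not printed because it overlaps an exon, had 76.0%. A match is a description of letters, and which start the cells used was not measured.

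Labelled libraries held 724913 to 1740475 gene counts, so a count of 3 stood for 1.72 to 4.14 CPM (gene counts scaled to a common library total of 1e+06), the scale of all levels given here. The BRM014 libraries of IMR-32 and SK-N-DZ were the shallowest. The 12 adrenergic neuroblastoma markers summed to 6255 to 15357 CPM in the labelled libraries, and 10 to 12 of them had counts in each labelled group. DBH and TH had none in IMR-32 with BRM014 and in both SMARCA4-mAID groups, and TH had none in SK-N-DZ with BRM014. Schwann and glial markers reached at most 12.6 CPM, fibroblast markers 61.6 CPM, immune markers 4.05 CPM and endothelial markers 2.78 CPM. SMARCA4 RNA was not called in any treatment comparison. In the degron line it stood at 644 and 584 CPM with auxin and at 724 and 842 CPM with ethanol, a log2 fold change of -0.35 (SE 0.12, adjusted p = 0.109), and the degron acts on the protein, which was not measured. Counts are per cell population, so fewer cells of a type and less RNA per cell cannot be told apart.

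Of the 10 genes, 9 passed the filter on low counts and DCC did not. Adjusted p stands throughout for edgeR's quasi-likelihood test with Benjamini-Hochberg adjustment over 12853 genes, a gene was called below 0.05, and log2 fold changes are treated over vehicle. With BRM014, 1 gene rose and 2 fell in IMR-32, where 12.8% of all genes were called, 6.26% higher and 6.57% lower. In KELLY 4 rose and 1 fell, beside 11.6% of all genes called, 6.57% higher and 4.98% lower. In SK-N-DZ 2 rose and 3 fell, beside 19.4% of all genes, 9.88% higher and 9.55% lower. None was called after auxin by edgeR or DESeq2, with 1 gene, UNC5A, at an unadjusted p below 0.05, and 2.19% of all genes were called there, 1.03% higher and 1.16% lower. The median log2 fold change of the 9 tested genes was 0.27 in KELLY, -0.27 in IMR-32, 0.00 in SK-N-DZ (the value of NTN4, which had no count there) and 0.09 after auxin, and the medians over all genes lay between -0.04 and 0.00. With 1 library left out the number called was 0 or 1 in IMR-32, whichever of the 4 it was, in KELLY 3 without DMSO replicate 1 or 2, and in SK-N-DZ 3 without BRM014 replicate 2.

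**Figure D1:**
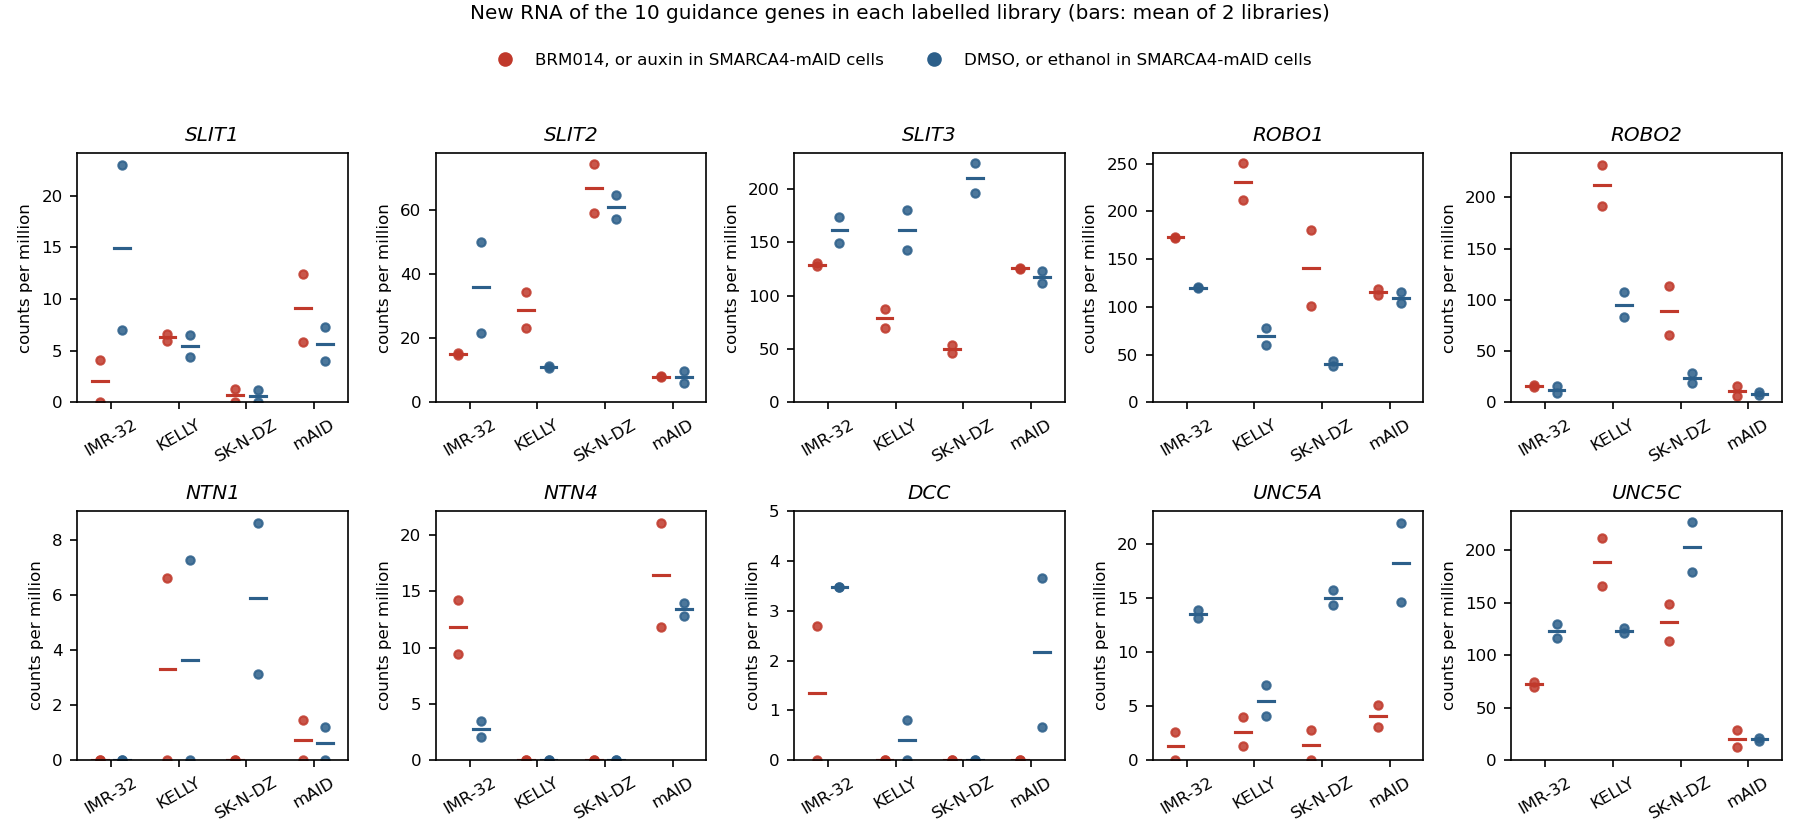
New RNA of each of the 10 guidance genes in CPM (y axis, linear, own scale per gene) in the 16 labelled libraries. Points are libraries and bars the mean of 2; red is BRM014 or auxin and blue is DMSO or ethanol. ROBO1 lay above its vehicle in all 3 BRM014 comparisons, and SLIT3 below it in KELLY and SK-N-DZ with no overlap.

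ROBO1, the receptor through which SLIT ligands repel axons, rose with BRM014 in all 3 lines and did not pass the test after auxin. The gene lies at chr3:78597240-79767815 (GRCh38, minus strand). KELLY libraries had 250.4 and 212 CPM with BRM014, against 60.4 and 77.7 CPM with DMSO. These groups were far apart, and the increase was 3.47-fold (log2 1.80, SE 0.19, adjusted p = 1.56e-12). SK-N-DZ libraries had 101 and 181 CPM with BRM014, against 37.8 and 43.1 CPM with DMSO. The BRM014 libraries differed widely from each other but both lay above the DMSO libraries, and the increase was 3.496-fold (log2 1.81, SE 0.22, adjusted p = 2.46e-10). In IMR-32 ROBO1 had 173 and 173 CPM with BRM014, against 121 and 119 CPM with DMSO. The libraries of a group nearly coincided, and the smaller increase was 1.49-fold (log2 0.57, SE 0.20, adjusted p = 0.0408). That call in IMR-32 was lost without any 1 of the 4 libraries, with adjusted p of 0.144 to 0.160, although the estimate stayed between 0.56 and 0.59, and was also lost with scaling by library totals alone (adjusted p = 0.0669) and without the filter on low counts (adjusted p = 0.0830).

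After auxin ROBO1 had 119 and 113 CPM, against 104 and 116 CPM with ethanol. These groups overlapped, and the log2 fold change was 0.08, with a 95% interval from the SE of -0.30 to 0.45 (adjusted p = 0.959). The interval lies below the values seen with BRM014 in KELLY and SK-N-DZ, which are other lines. Between BRM014 in IMR-32 and auxin in the degron line the ROBO1 effect differed by 0.49 (SE 0.27, adjusted p = 0.471).

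ROBO2, the second SLIT receptor measured, rose with BRM014 in KELLY and SK-N-DZ. It lies at chr3:75906695-77649964 (GRCh38, plus strand), next to ROBO1 on chromosome 3. In KELLY it had 232 and 192 CPM with BRM014, against 83.0 and 108 CPM with DMSO, a 2.30-fold increase (log2 1.20, SE 0.26, adjusted p = 3.96e-04). In SK-N-DZ it had 113 and 65.9 CPM with BRM014, against 28.9 and 19.0 CPM with DMSO, a 3.76-fold increase (log2 1.91, SE 0.32, adjusted p = 1.80e-06). The groups did not overlap in either line. Within the SK-N-DZ BRM014 group the order of the libraries was opposite for the 2 receptors, with ROBO1 higher in replicate 2 and ROBO2 higher in replicate 1. In IMR-32 ROBO2 was low, with 14.8 and 16.8 CPM with BRM014 and 15.99 and 8.71 CPM with DMSO. It rested on 24 against 33 counts, and the groups overlapped (log2 0.37, SE 0.48, adjusted p = 0.700). After auxin it had 5.81 and 16.1 CPM, against 9.96 and 6.71 CPM with ethanol, groups that also overlapped (log2 0.44, SE 0.46, adjusted p = 0.820).

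The balance of the 2 receptors differed among the lines. ROBO2 made up 48.1% and 47.5% of the ROBO1 and ROBO2 counts in KELLY with BRM014, against 57.9% and 58.1% with DMSO. In SK-N-DZ it made up 52.9% and 26.7% with BRM014, against 43.4% and 30.6% with DMSO, so that these groups overlapped. In IMR-32 the share was 7.91% and 8.84% with BRM014 and 11.7% and 6.80% with DMSO. Exact 95% binomial intervals of these shares, which cover counting error only, reached from 44.4% to 51.8% and from 51.2% to 64.4% for replicate 1 of the KELLY BRM014 and DMSO groups. The summed level of both receptors was 403 to 482 CPM in KELLY with BRM014 and 143 to 185 CPM with DMSO, and 214 to 247 CPM in SK-N-DZ with BRM014 and 62.1 to 66.7 CPM with DMSO.

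SLIT3, a secreted SLIT ligand, fell with BRM014 in KELLY and SK-N-DZ, the lines in which both receptors rose. Of the SLIT genes it had the highest level per kb, uncorrected for uridine content, in every labelled group but SK-N-DZ with BRM014. The gene lies at chr5:168661733-169301129 (GRCh38, minus strand). SK-N-DZ libraries had 53.8 and 46.2 CPM with BRM014, against 196 and 225 CPM with DMSO. The level was 4.19-fold lower (log2 -2.07, SE 0.22, adjusted p = 3.35e-13). In KELLY SLIT3 had 87.7 and 69.4 CPM with BRM014, against 179.8 and 142 CPM with DMSO, 2.00-fold lower (log2 -0.998, SE 0.18, adjusted p = 2.02e-05). In IMR-32 the BRM014 libraries, at 128 and 130.3 CPM, lay just below the DMSO libraries, at 149 and 174 CPM, and the difference did not pass the test (log2 -0.27, SE 0.19, adjusted p = 0.398). After auxin SLIT3 had 125 and 126 CPM, against 112 and 123 CPM with ethanol (log2 0.09, 95% interval -0.26 to 0.45, adjusted p = 0.934).

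SLIT2, the SLIT ligand best known from midline guidance in vertebrates, was called with BRM014 in KELLY. It had 23.25 and 34.4 CPM with BRM014 in KELLY, against 10.7 and 11.3 CPM with DMSO, a 2.69-fold increase (log2 1.43, SE 0.44, adjusted p = 0.0189). That call rested on 87 against 31 counts and was lost without BRM014 replicate 2 (adjusted p = 0.186), DMSO replicate 1 (0.142) or DMSO replicate 2 (0.0813), and with an adjustment for transcript GC share and length (0.0544). In IMR-32 SLIT2 had 14.8 and 15.5 CPM with BRM014, against 50.1 and 21.8 CPM with DMSO. The BRM014 libraries were alike and below both DMSO libraries, which lay far apart (log2 -1.21, SE 0.46, adjusted p = 0.0651). Without DMSO replicate 2 the log2 fold change was -1.67 and passed (adjusted p = 0.0207), and without DMSO replicate 1 it was -0.47 (adjusted p = 0.723). In SK-N-DZ SLIT2 had 74.5 and 59.3 CPM with BRM014 and 57.3 and 64.9 CPM with DMSO, overlapping groups (log2 0.14, SE 0.37, adjusted p = 0.861). After auxin it had 7.99 and 8.06 CPM, against 5.98 and 9.77 CPM with ethanol (log2 0.02, SE 0.53).

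SLIT1, the ligand found mainly in the nervous system, was scarce and passed no treatment test. In IMR-32 it had 3 and 0 counts with BRM014, against 33 and 8 counts with DMSO, a level 8.02-fold lower by counts (exact 95% interval 2.56 to 40.5, counting error only). The adjusted p was 0.0764, and the DMSO libraries stood at 22.9 and 6.97 CPM. KELLY libraries had 6.64 and 5.95 CPM with BRM014 and 4.40 and 6.47 CPM with DMSO, and SK-N-DZ had 1 count in all with BRM014 and 2 with DMSO. Auxin libraries had 5.81 and 12.4 CPM and ethanol libraries 3.98 and 7.32 CPM, groups that overlapped. SLIT1 shares its locus with a readthrough transcript and an antisense gene that were counted alongside it. As the strand setting of the counting is not given, how reads of the shared parts were assigned cannot be told. Ambiguous reads, 1.11% to 1.71% of the total in labelled libraries, were left out, so SLIT1 may be under-counted.

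The make-up of the SLIT RNAs also differed with BRM014. In SK-N-DZ SLIT3 made up 41.9% and 43.2% of SLIT1, SLIT2 and SLIT3 counts with BRM014, against 77.4% and 77.3% with DMSO. In KELLY the shares were 74.6% and 63.3% with BRM014, against 92.3% and 88.9% with DMSO. In IMR-32 they were 87.2% and 89.4% with BRM014, against 67.2% and 85.8% with DMSO, above rather than below the DMSO libraries. The summed SLIT level was lower with BRM014 in each line, at 107 to 128 CPM against 254 to 291 CPM in SK-N-DZ, 109.8 to 118 CPM against 160.2 to 195 CPM in KELLY, and 146 to 147 CPM against 203 to 223 CPM in IMR-32. These sums and shares were not tested.

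**Figure D2:**
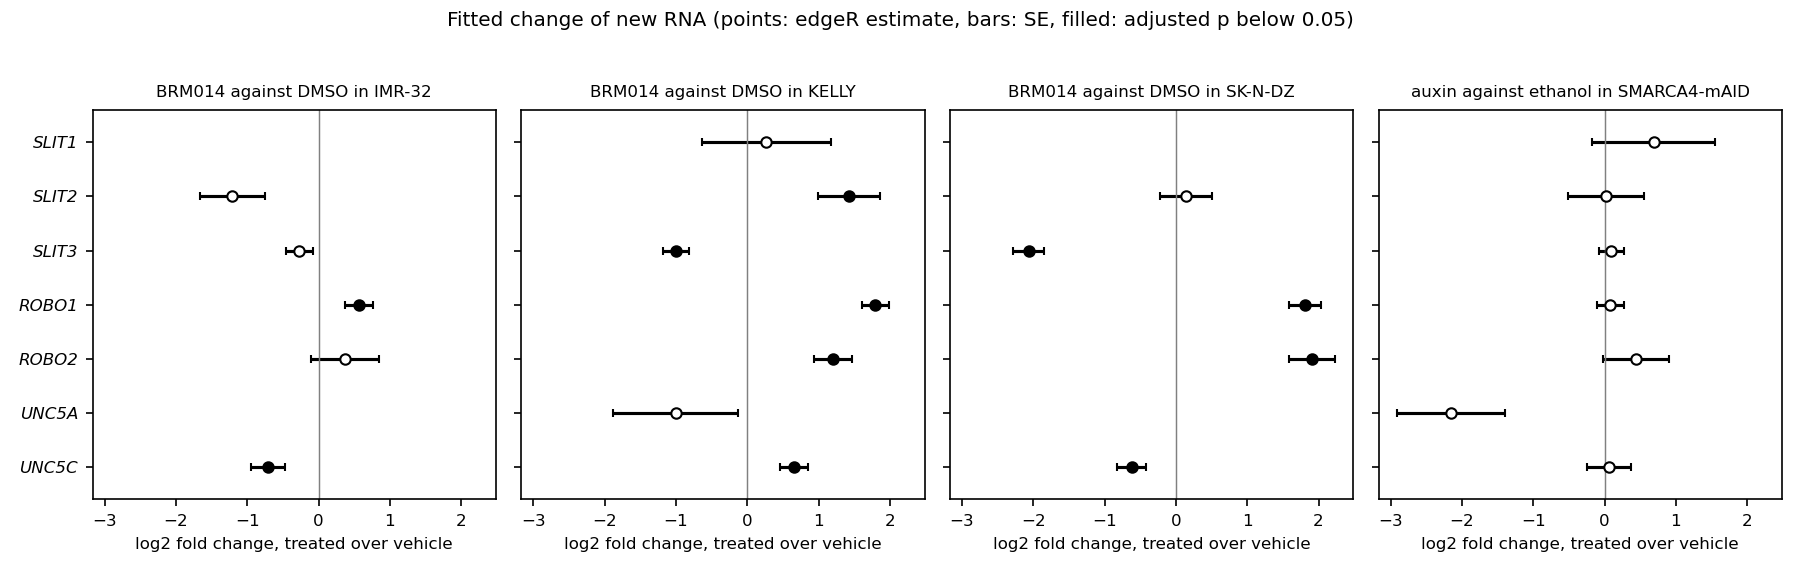
Log2 fold change, treated over vehicle (x axis), of 7 guidance genes in the 4 treatment comparisons (panels), with SE bars and filled points for adjusted p below 0.05. Groups with 3 counts or fewer are left out; ROBO1 (1.80 in KELLY, 1.81 in SK-N-DZ) and SLIT3 (-0.998 in KELLY, -2.07 in SK-N-DZ) lie on opposite sides of 0, and no auxin point is filled.

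Netrin RNAs were scarce. By group mean NTN4 in SMARCA4-mAID cells was the highest, on 48 counts with auxin and 42 with ethanol. NTN1, which encodes netrin-1, had no count in the 4 libraries of non-engineered IMR-32. KELLY libraries had 0 and 10 counts with BRM014 and 0 and 9 with DMSO, all in replicate 2. In SK-N-DZ it had 0 counts with BRM014, against 5 and 15 counts with DMSO, at least 2.97-fold lower when the BRM014 group is set at 3 counts, and this did not pass the test (adjusted p = 0.104). NTN4, which encodes the basement membrane protein netrin-4, had no count in any KELLY or SK-N-DZ library, and was detected only in non-engineered IMR-32 and SMARCA4-mAID cells. In IMR-32 it had 9.43 and 14.2 CPM with BRM014, against 2.09 and 3.48 CPM with DMSO, on 18 against 7 counts (log2 2.12, SE 1.01, adjusted p = 0.169). Auxin libraries had 21.1 and 11.8 CPM and ethanol libraries 13.9 and 12.8 CPM (log2 0.29, SE 0.81).

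UNC5C is a repulsive netrin receptor. In every labelled group of the non-engineered lines its level per kb of exon, uncorrected for uridine content, exceeded those of UNC5A and DCC. UNC5C moved in opposite directions among the lines. It lies at chr4:95162504-95549206 (GRCh38, minus strand). KELLY had 211 and 166 CPM with BRM014, against 126 and 121 CPM with DMSO, 1.58-fold higher (log2 0.66, SE 0.20, adjusted p = 0.0149). IMR-32 had 70.1 and 74.8 CPM with BRM014, against 116 and 129.8 CPM with DMSO, 1.63-fold lower (log2 -0.71, SE 0.23, adjusted p = 0.0298). SK-N-DZ had 149 and 113 CPM with BRM014, against 179 and 226 CPM with DMSO, 1.54-fold lower (log2 -0.62, SE 0.21, adjusted p = 0.0213). The groups overlapped in none of the 3 lines. The KELLY call was lost without BRM014 replicate 1 (adjusted p = 0.310), DMSO replicate 1 (0.0765) or DMSO replicate 2 (0.100) and with the adjustment for GC share and length (0.199), the IMR-32 call without any 1 of its 4 libraries (0.0772 to 0.165), and the SK-N-DZ call without BRM014 replicate 2 (0.273) or DMSO replicate 2 (0.299). After auxin UNC5C had 12.3 and 28.5 CPM, against 18.6 and 21.4 CPM with ethanol (log2 0.06, 95% interval -0.55 to 0.68).

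UNC5A, another repulsive netrin receptor, was a low-count gene that fell with BRM014 in IMR-32 and SK-N-DZ. It lies at chr5:176810477-176880898 (GRCh38, plus strand) and overlaps HK3 on the other strand. In IMR-32 it had 0 and 2 counts with BRM014, against 19 and 16 counts with DMSO, 10.3-fold lower by counts (exact 95% interval 2.64 to 88.1, adjusted p = 0.0305). In SK-N-DZ it had 2 and 0 counts with BRM014, against 25 and 25 counts with DMSO, 11.1-fold lower (2.93 to 94.5, adjusted p = 0.0132). The IMR-32 call was lost without BRM014 replicate 1 (adjusted p = 0.258), DMSO replicate 1 (0.0921) or DMSO replicate 2 (0.0834), and the SK-N-DZ call without BRM014 replicate 2 (0.177). The adjustment for GC share and length ended both calls, with adjusted p of 0.0996 and 0.0916. KELLY libraries had 1.33 and 3.97 CPM with BRM014, against 6.92 and 4.05 CPM with DMSO (log2 -1.005, SE 0.88, adjusted p = 0.552).

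After auxin UNC5A had 5.08 and 3.10 CPM, against 14.6 and 21.97 CPM with ethanol. The groups did not overlap and the log2 fold change was -2.15 (SE 0.76), but it did not pass over all genes (adjusted p = 0.137). With only the 4 libraries of the degron line in the fit it did (adjusted p = 0.0187), while leaving out 1 library gave 0.215 to 0.607. UNC5A lay below its vehicle in each of the 4 comparisons and was called in IMR-32 and SK-N-DZ only. In KELLY the nearest libraries almost met, at 3.97 CPM with BRM014 on 6 counts and 4.05 CPM with DMSO on 5 counts.

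DCC, the attractive netrin receptor, had at most 6 counts in any library. IMR-32 had 2 and 0 counts with BRM014, against 5 and 4 with DMSO, a ratio of 2.64-fold lower whose exact 95% interval, 0.546 to 25.1, includes 1. Auxin libraries had 0 counts, against 1 and 6 counts with ethanol, at least 2.22-fold lower when the auxin group is set at 3 counts. KELLY and SK-N-DZ libraries together had 1 count.

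The size of the BRM014 effect was compared between lines by testing the difference itself, in which 3 guidance genes were called for KELLY minus IMR-32, all higher, 1 higher and 1 lower for SK-N-DZ minus IMR-32, and 2, both lower, for SK-N-DZ minus KELLY. Of all genes 3.28% were called in the first (2.08% higher, 1.21% lower), 2.61% in the second (1.45% and 1.17%) and 3.9% in the third (1.63% and 2.27%). ROBO1 rose more in KELLY than in IMR-32, with a log2 difference of 1.22 (SE 0.28, adjusted p = 0.00210), and more in SK-N-DZ than in IMR-32, with one of 1.23 (SE 0.30, adjusted p = 0.00622). Between SK-N-DZ and KELLY the ROBO1 effects differed by 0.01 (SE 0.27). SLIT3 fell further in SK-N-DZ than in IMR-32, a difference of -1.80 (SE 0.29, adjusted p = 7.21e-06), and further than in KELLY, a difference of -1.07 (SE 0.29, adjusted p = 0.0154). UNC5C differed between KELLY and IMR-32 by 1.37 (SE 0.30, adjusted p = 0.00165) and between SK-N-DZ and KELLY by -1.28 (SE 0.28, adjusted p = 0.00150). SLIT2 differed between KELLY and IMR-32 by 2.64 (SE 0.63, adjusted p = 0.00463). ROBO2 passed in none of these differences, which ranged from 0.71 to 1.54, although it was called in KELLY and SK-N-DZ and not in IMR-32.

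Of those differences, ROBO1 and UNC5C between KELLY and IMR-32, SLIT3 between SK-N-DZ and IMR-32, and UNC5C between SK-N-DZ and KELLY passed under every alternative run. SLIT2 was lost without IMR-32 DMSO replicate 1 (1.89, adjusted p = 0.202). The ROBO1 difference between SK-N-DZ and IMR-32 was lost without SK-N-DZ BRM014 replicate 2 (0.75, adjusted p = 0.274) or SK-N-DZ DMSO replicate 1 (1.14, adjusted p = 0.0519). The SLIT3 difference between SK-N-DZ and KELLY was lost without KELLY BRM014 replicate 1 (adjusted p = 0.142), KELLY DMSO replicate 2 (0.103), SK-N-DZ BRM014 replicate 2 (0.108) or SK-N-DZ DMSO replicate 2 (0.0930), and with the adjustment for GC share and length (0.133). Between BRM014 in IMR-32 and auxin in the degron line no guidance gene differed by edgeR or DESeq2, with 1, SLIT1, at an unadjusted p below 0.05, and 1.95% of all genes were called, 1.06% higher and 0.887% lower.

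The summed level of mesenchymal neuroblastoma markers was higher with BRM014 in KELLY and SK-N-DZ and lower in IMR-32. It was also higher with auxin in SMARCA4-mAID cells, and these sums were not tested. Detection of single markers changed both ways in KELLY, where PRRX1 and WWTR1 had counts only with DMSO, and NOTCH2 only with BRM014. The 9 markers, of which 5 had counts with BRM014 and 6 with DMSO, summed to 508 to 532 CPM in KELLY with BRM014 and 186 to 244 CPM with DMSO. In SK-N-DZ the sums were 385 to 449.7 CPM with BRM014 (3 markers with counts) and 353 to 372 CPM with DMSO (8 markers), and in IMR-32 they were 244 to 259 CPM with BRM014 (5 markers) and 342 to 352 CPM with DMSO (6 markers). SMARCA4-mAID sums were 376 to 406 CPM with auxin (5 markers) and 296 to 324 CPM with ethanol (7 markers). In KELLY, PRRX1, YAP1, WWTR1 and FOSL1 were at 0 with BRM014, and YAP1, FOSL1 and NOTCH2 were at 0 with DMSO. PRRX1 was also at 0 in both groups of IMR-32, SK-N-DZ and SMARCA4-mAID. The part of this marker list in the changes of ROBO1, ROBO2, SLIT2, SLIT3 and UNC5C was not tested.

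Vehicle levels of some guidance genes differed between lines, and with 9 genes tested the counts called lay near the shares over all genes. In KELLY against IMR-32, 1 guidance gene was higher and 3 were lower, beside 39.6% of all genes called (18.1% higher, 21.6% lower). In SK-N-DZ against IMR-32, 2 were higher and 3 lower, beside 44.1% (21.2% higher, 22.9% lower), and in SK-N-DZ against KELLY, 2 were higher and 2 lower, beside 31.8% (16.6% higher, 15.2% lower). ROBO2 was highest in KELLY, with 83.0 and 108 CPM in KELLY, against 15.99 and 8.71 CPM in IMR-32, 6.69-fold higher (log2 2.74, SE 0.35, adjusted p = 1.26e-10). SK-N-DZ, at 28.9 and 19.0 CPM, was 3.93-fold below KELLY (log2 -1.98, SE 0.30, adjusted p = 8.31e-08). SK-N-DZ did not differ from IMR-32 past the threshold in ROBO2 (log2 0.77, SE 0.39, adjusted p = 0.103), and ethanol-treated degron cells overlapped IMR-32.

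By mean level ROBO1 was highest in IMR-32, followed by SMARCA4-mAID, KELLY and SK-N-DZ, with no overlap between neighbours. ROBO1 did not differ between SMARCA4-mAID and IMR-32 past the threshold (log2 -0.16, SE 0.19, adjusted p = 0.767). It was lower in KELLY than in IMR-32 (log2 -0.97, SE 0.20, adjusted p = 6.01e-05) and lower in SK-N-DZ than in IMR-32 (log2 -1.71, SE 0.21, adjusted p = 8.32e-11). It was also lower in SK-N-DZ than in KELLY (log2 -0.74, SE 0.22, adjusted p = 0.00653), a call lost without KELLY DMSO replicate 2 (0.118) or SK-N-DZ DMSO replicate 1 (0.0711). With BRM014 the order was another, and KELLY was highest.

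By mean level SLIT2 was highest in SK-N-DZ, followed by IMR-32, KELLY and SMARCA4-mAID without overlap. Between SK-N-DZ and IMR-32 the SLIT2 difference did not pass the test (log2 0.60, SE 0.37, adjusted p = 0.179). SK-N-DZ stood at 57.3 and 64.9 CPM, against 10.7 and 11.3 CPM in KELLY, 5.57-fold higher (log2 2.48, SE 0.42, adjusted p = 8.05e-07). KELLY was lower than IMR-32 (log2 -1.88, SE 0.43, adjusted p = 2.29e-04), but not without IMR-32 DMSO replicate 1 (log2 -1.13, adjusted p = 0.112). SLIT1 had 0 and 2 counts in SK-N-DZ, against 33 and 8 in IMR-32, 26.4-fold lower by counts (exact 95% interval 6.86 to 225, adjusted p = 4.54e-04), a call lost without IMR-32 DMSO replicate 1 (adjusted p = 0.0511). SLIT3 passed in none of the vehicle comparisons, where its log2 differences ran from -0.49 to 0.39, and IMR-32 and KELLY overlapped.

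UNC5C was highest in SK-N-DZ, at 179 and 226 CPM. It stood 1.66-fold above KELLY (log2 0.73, SE 0.19, adjusted p = 0.00175; 0.0959 without SK-N-DZ DMSO replicate 2) and 1.498-fold above IMR-32 (log2 0.58, SE 0.20, adjusted p = 0.0108). The difference from IMR-32 was lost without IMR-32 DMSO replicate 1 (0.115) or SK-N-DZ DMSO replicate 2 (0.214), and KELLY and IMR-32 overlapped. NTN4 was at 0 in KELLY and SK-N-DZ, against 3 and 4 counts in IMR-32, at least 2.55-fold and 3.004-fold lower (adjusted p = 0.0308 and 0.0205). NTN1 had 5 and 15 counts in SK-N-DZ, against 0 in both IMR-32 libraries, at least 5.18-fold higher (adjusted p = 0.0267). Of these 3 calls on few counts, the KELLY one was lost without IMR-32 DMSO replicate 2 (0.101), KELLY DMSO replicate 1 (0.148) or KELLY DMSO replicate 2 (0.103). The SK-N-DZ call of NTN4 was lost without IMR-32 DMSO replicate 2 (0.0781) or either SK-N-DZ library (0.0874 and 0.102). The NTN1 call was lost without any of IMR-32 DMSO replicates 1 and 2 and SK-N-DZ DMSO replicate 2 (0.115 to 0.162), with DESeq2 (0.488) and with the adjustment for GC share and length (0.113).

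**Figure D3:**
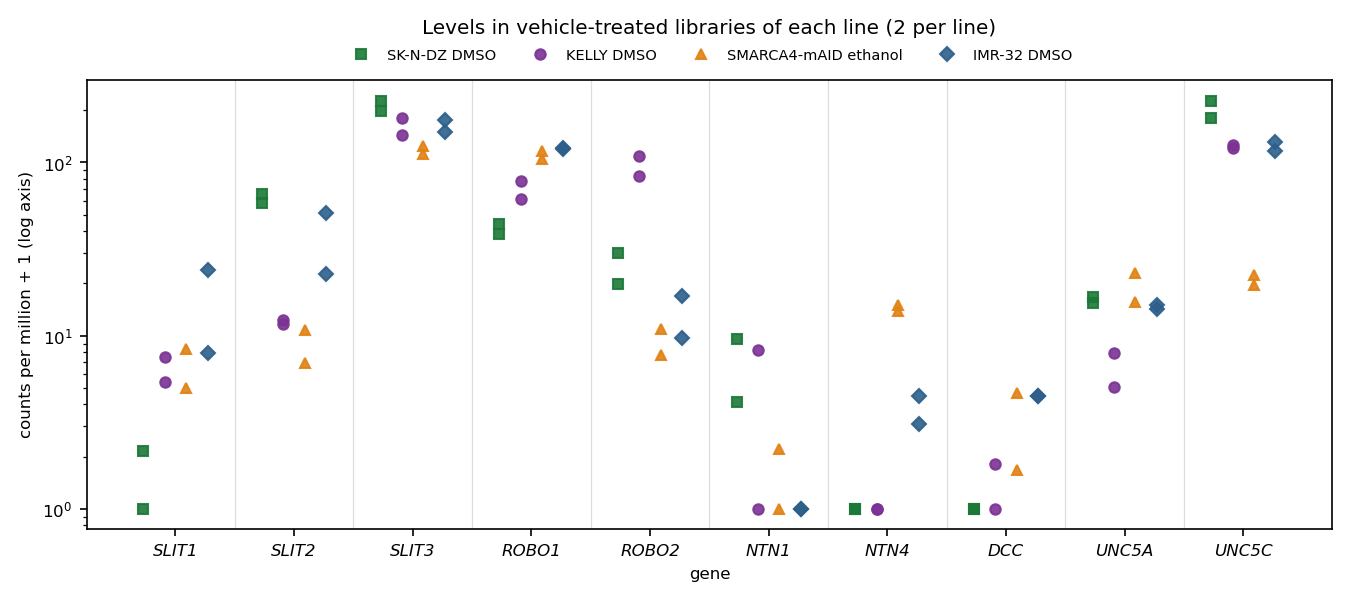
CPM plus 1 (y axis, log scale) of the 10 guidance genes in the 2 vehicle libraries of each line, each point a library. ROBO2 is highest in KELLY at 83.0 and 108 CPM, SLIT2 and UNC5C in SK-N-DZ, ROBO1 in IMR-32, and UNC5C in SMARCA4-mAID ethanol libraries lies at 18.6 and 21.4 CPM against 116 and 129.8 CPM in IMR-32.

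The engineered line differed from non-engineered IMR-32 before any auxin, with 2 guidance genes called, both lower, beside 6.16% of all genes (2.67% higher, 3.49% lower). UNC5C had 18.6 and 21.4 CPM in ethanol-treated SMARCA4-mAID cells, against 116 and 129.8 CPM in DMSO-treated IMR-32, 6.22-fold lower (log2 -2.64, SE 0.25, adjusted p = 1.47e-14). SLIT2 had 5.98 and 9.77 CPM in the engineered cells, against 50.1 and 21.8 CPM in IMR-32 (log2 -2.22, SE 0.45, adjusted p = 2.18e-04), a call lost without IMR-32 DMSO replicate 1 (log2 -1.47, adjusted p = 0.162). NTN4 had 13.9 and 12.8 CPM in the engineered cells, against 2.09 and 3.48 CPM in IMR-32, and did not pass (log2 2.22, SE 0.96, adjusted p = 0.189). SMARCA4 RNA itself was 8.23-fold higher in the engineered cells (log2 3.04, SE 0.14). Line and vehicle cannot be told apart in this comparison.

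Per kilobase of exon the guidance genes were set beside each other, without correction for uridine content, although the label is a uridine analogue. Among these genes the uridine share of the longest transcript was lowest in UNC5A and highest in ROBO2. That share was lower in SLIT3 than in ROBO1, ROBO2 or UNC5C. The part of uridine share in differences between genes was not tested. With DMSO, SLIT3 had 16.6 CPM per kb, ROBO1 15.4 and UNC5C 11.5 in IMR-32, while SLIT2 had 5.32, UNC5A 3.41, SLIT1 1.80, ROBO2 1.30, NTN4 0.760 and DCC 0.331. In KELLY with DMSO SLIT3 had 16.5 CPM per kb, UNC5C 11.5, ROBO2 10.0 and ROBO1 8.82. With BRM014 in KELLY these were 8.07 for SLIT3, 17.7 for UNC5C, 22.2 for ROBO2 and 29.5 for ROBO1, so the level per kb of each of these 3 receptors then exceeded that of SLIT3. In SK-N-DZ SLIT3 had 5.13 CPM per kb with BRM014 and 21.6 with DMSO, and ROBO1 17.99 with BRM014 and 5.17 with DMSO.

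Some other genes had group means that correlated with those of guidance genes over the 8 labelled groups. For the 4 guidance genes with the widest range of group means, the genes with the highest Pearson correlation of mean log2 CPM were sought among 8863 genes, as a description over 8 groups that share lines and libraries. ROBO1 was most like NRG1, a neuregulin growth factor gene (r = 0.991), WDFY3 (0.98) and USP34 (0.971). NRG1 averaged 125 CPM in KELLY with BRM014 and 35.2 CPM with DMSO, and 67.5 CPM in SK-N-DZ with BRM014 and 16.5 CPM with DMSO, on the scale of these log means. ROBO2 was most like HSD17B11 (0.98), RBM33 (0.978) and SLC35E2B (0.977). UNC5C was most like SLC10A4, a transporter family gene (0.971), PHKA1 and PDE4A (0.963 each). SLIT2 was most like ZNF318 (0.968), FDFT1 and UBP1 (0.947 each). Changes with treatment did not always match. In IMR-32 PHKA1 averaged 15.9 CPM with BRM014 and 13.5 CPM with DMSO, while UNC5C averaged 80.5 and 131 CPM. In KELLY PDE4A averaged 30.8 CPM with BRM014 and 31.7 CPM with DMSO, while UNC5C averaged 184 and 118 CPM. RBM33 averaged 408 CPM in KELLY with BRM014 and 233 CPM in IMR-32 with DMSO, where ROBO2 averaged 207 and 14.0 CPM.

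Another 60 genes of the pathway were followed, 19 ligands and receptors, 9 matrix and surface partners and 32 intracellular partners, of which 14, 9 and 32 passed the filter, 55 in all. With BRM014, 8 rose and 6 fell in IMR-32, 8 rose and 3 fell in KELLY, and 6 rose and 6 fell in SK-N-DZ, and after auxin 3 rose and 1 fell. Over all genes tested the shares called were 12.8% in IMR-32, 11.6% in KELLY, 19.4% in SK-N-DZ and 2.19% after auxin, so in SK-N-DZ the 12 of 55 called lay near the background. Of the ligands and receptors, 2 rose and 1 fell in IMR-32, 1 rose and 1 fell in KELLY, 1 rose and 2 fell in SK-N-DZ, and 1 fell after auxin. Of the matrix and surface partners, 1 rose in each of the 3 BRM014 comparisons, while 4 fell in IMR-32 and 2 each in KELLY and SK-N-DZ. The intracellular partners had 5 rising and 1 falling in IMR-32, 6 rising and 0 falling in KELLY, 4 rising and 2 falling in SK-N-DZ, and 3 rising after auxin. The median log2 fold change over the 55 was 0.13 in KELLY, 0.04 in IMR-32, 0.00 in SK-N-DZ and -0.05 after auxin. UNC5B, the third UNC5 receptor described here, was among the smallest p in IMR-32, SK-N-DZ and after auxin. It had 239 and 157 CPM with BRM014 in IMR-32, against 499 and 403 CPM with DMSO (log2 -1.14, SE 0.14, adjusted p = 6.61e-10). In SK-N-DZ it had 141 and 178 CPM with BRM014, against 371 and 425 CPM with DMSO (log2 -1.31, SE 0.15, adjusted p = 7.30e-12). Auxin libraries had 242 and 230.1 CPM, against 403 and 433 CPM with ethanol (log2 -0.83, SE 0.13, adjusted p = 3.99e-06), and UNC5B also fell in KELLY (log2 -0.61, SE 0.13, adjusted p = 3.45e-04), a comparison in which it was named after its values were seen. The groups overlapped in none of the 4 comparisons, and UNC5A and UNC5C were not called after auxin.

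FLRT3, a surface protein that binds UNC5 receptors and ROBO1, rose in KELLY, with 361 and 360.4 CPM with BRM014 against 167 and 163 CPM with DMSO (log2 1.17, SE 0.13, adjusted p = 4.70e-12). In SK-N-DZ it had 811 and 889 CPM with BRM014, against 308 and 286 CPM with DMSO (log2 1.53, SE 0.12, adjusted p = 1.24e-18). HS6ST1, which adds sulphate to the heparan sulphate chains that SLIT and ROBO bind, had 3.99 and 7.27 CPM with BRM014 in KELLY, against 50.9 and 60.7 CPM with DMSO (log2 -3.24, SE 0.43, adjusted p = 3.98e-09). HS2ST1, another heparan sulphate sulphotransferase, rose in SK-N-DZ, with 261 and 212 CPM with BRM014 against 96.3 and 91.9 CPM with DMSO (log2 1.34, SE 0.16, adjusted p = 1.11e-10). HS6ST1 was also called lower in IMR-32 (log2 -1.32, adjusted p = 0.0266) and SK-N-DZ (log2 -1.23, adjusted p = 0.0264). HS2ST1 was also called higher in IMR-32 (log2 0.52, adjusted p = 0.00903) and KELLY (log2 0.63, adjusted p = 0.00146). FLRT3 was not called in IMR-32 (log2 0.25, adjusted p = 0.296). These surface genes thus moved both ways.

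Among intracellular partners, SOS1 and SOS2, exchange factors for RAS and RAC, rose in KELLY (log2 0.83, SE 0.14, adjusted p = 4.31e-06, and log2 1.03, SE 0.20, adjusted p = 5.98e-05), and SOS2 rose in SK-N-DZ (log2 1.33, SE 0.20, adjusted p = 2.37e-07). SOS1 was also called higher in SK-N-DZ (log2 0.58, adjusted p = 0.00395) and SOS2 in IMR-32 (log2 0.66, adjusted p = 0.0108). SOS1 was not called in IMR-32 (log2 -0.18, adjusted p = 0.556). In IMR-32 DPYSL2, a microtubule regulator of growth cones, fell to 109.2 and 129 CPM with BRM014, against 285 and 272 CPM with DMSO (log2 -1.17, SE 0.17, adjusted p = 3.56e-08). DPYSL2 was also called lower in SK-N-DZ (log2 -0.90, adjusted p = 2.45e-06), and was not called in KELLY (log2 -0.12, adjusted p = 0.703). MAP1B, a microtubule-associated protein of axons, rose in IMR-32 (log2 0.42, SE 0.07, adjusted p = 1.49e-06), as did TRIM67, a ubiquitin ligase related to the DCC partner TRIM9, with 267 and 259 CPM with BRM014 against 99.4 and 131 CPM with DMSO (log2 1.25, SE 0.21, adjusted p = 5.20e-06). MAP1B was also called higher in KELLY (log2 0.25, adjusted p = 0.00726) but not in SK-N-DZ, and TRIM67 was called in neither. With BRM014 SRGAP1 was called higher in IMR-32 (log2 1.57, adjusted p = 0.00114), and in neither KELLY nor SK-N-DZ. After auxin SRGAP3, of the family of GTPase-activating proteins that bind ROBO1, had 11 and 16 counts, against 0 and 1 with ethanol, 28.4-fold higher by counts (exact 95% interval 4.68 to 1163, adjusted p = 0.00138; 0.0737 without ethanol replicate 1). SRGAP1 had 51.6 and 44.7 CPM with auxin, against 15.3 and 20.1 CPM with ethanol (log2 1.43, SE 0.34, adjusted p = 0.00660), and TRIM67 had 255 and 243 CPM with auxin, against 122 and 168 CPM with ethanol (log2 0.77, SE 0.20, adjusted p = 0.0144). SRGAP1 was lost without ethanol replicate 1 (adjusted p = 0.155) or auxin replicate 1 (0.0943). TRIM67 was lost without ethanol replicate 1 (0.356), auxin replicate 1 (0.143) or auxin replicate 2 (0.104), and with DESeq2 (0.524).

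**Figure D4:**
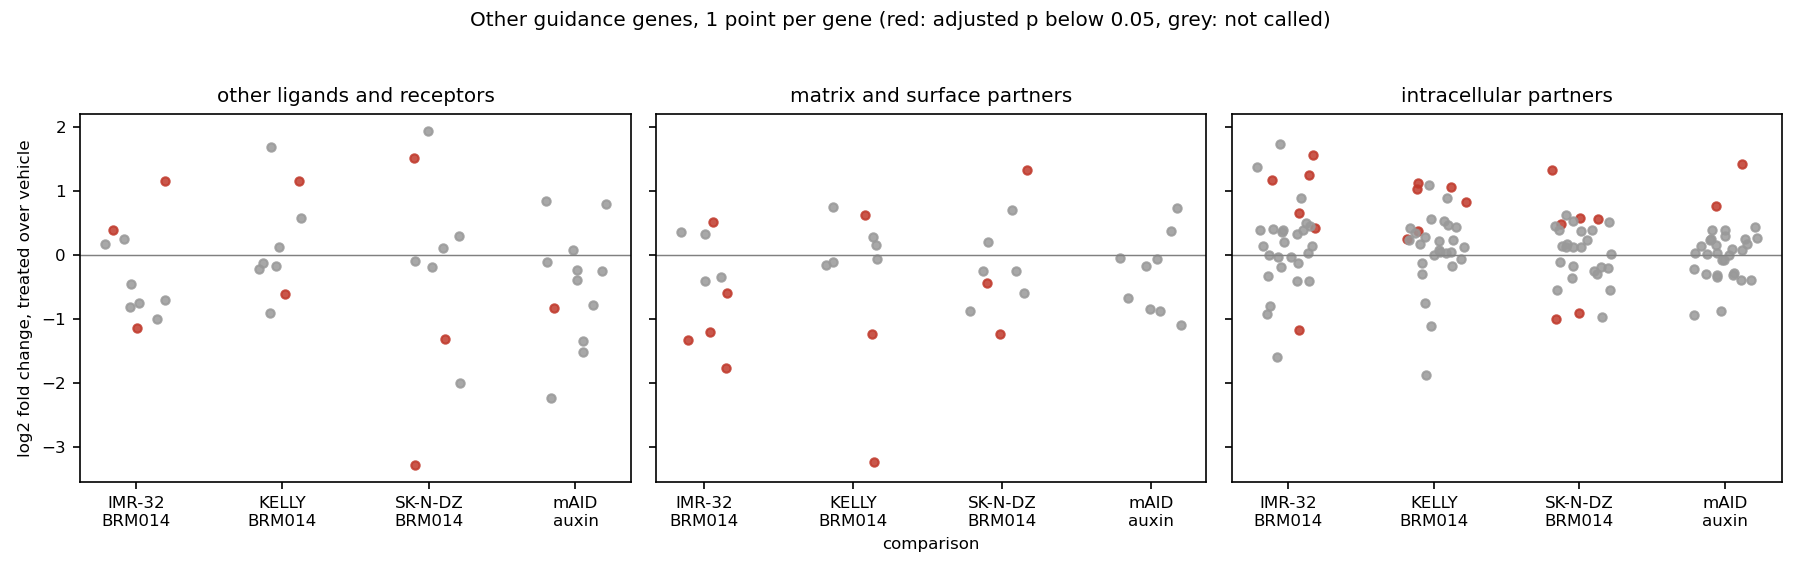
Log2 fold change, treated over vehicle (y axis), of the other pathway genes in the 4 treatment comparisons (x axis), 1 point per gene with more than 3 counts in each group (48 to 52 genes per comparison), red where adjusted p is below 0.05. Points lie on both sides of 0 in each class, with HS6ST1 at -3.24 in KELLY among the lowest.

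The labelled KELLY DMSO libraries held 2826333 gene counts together, and the unlabelled KELLY libraries 9827, which is 0.348% as many. The guidance genes had 1340 counts with label and 5 without, a share of 0.373%. The 5 were 2 counts of SLIT3, 2 of ROBO2 and 1 of UNC5A, and the other 7 genes had none.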

How the data were processed

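The authors deposited raw counts for every gene symbol, 1 file a library. The submitters' processing notes name HISAT, HTSeq, DESeq2 and hg38, with no version or role. How reads were selected for counting, with which annotation and strand setting, was not stated there or in the labels. Summary lines (no feature, 46.4% to 57.4% of the total) were left out. Levels are CPM computed over all genes of the deposited counts. Counts were tested with edgeR 4.0.16 (R 4.3.3): TMM factors, filterByExpr (12853 genes), 1 mean per group over the 16 labelled libraries (8 residual degrees of freedom), and Benjamini-Hochberg adjustment (called below 0.05), after a trial on simulated data. The biological coefficient of variation was 0.143. Library pairs differed by more than counting noise (chi-square per degree of freedom 2.36 to 3.31). Whether replicate libraries were separate cultures is not labelled, and the spread behind the p-values may be technical. Same-numbered libraries did not deviate together over 6241 well-counted genes. Ratios on 0 to 3 counts use a floor of 3 counts over the group or exact binomial 95% intervals, for counting error only. Alternatives were DESeq2 1.42.0, its size factors, library totals, no filter, single fits, a replicate block, single libraries left out and, added after seeing the data, a correction for transcript GC share and length. The members and lists were chosen with earlier results of these data known. Named pathway genes are those with the 4 smallest p among called genes of a treatment comparison; like-pattern genes are the top 3 for each of the 4 members of widest range. Gene positions come from GENCODE 29. Figures were drawn with matplotlib.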

Additional observations from a re-analysis of the deposited data

Results flagged for a closer look

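In 7 results the BRM014 effect on a guidance gene differed between lines by a test of the difference itself (edgeR, adjusted over 12853 genes, 2 libraries a group). KELLY minus IMR-32 gave 2.64 for SLIT2 (SE 0.63, adjusted p = 0.00463), 1.22 for ROBO1 (SE 0.28, adjusted p = 0.00210) and 1.37 for UNC5C (SE 0.30, adjusted p = 0.00165) on the log2 scale. SK-N-DZ minus IMR-32 gave -1.80 for SLIT3 (SE 0.29, adjusted p = 7.21e-06) and 1.23 for ROBO1 (SE 0.30, adjusted p = 0.00622). SK-N-DZ minus KELLY gave -1.07 for SLIT3 (SE 0.29, adjusted p = 0.0154) and -1.28 for UNC5C (SE 0.28, adjusted p = 0.00150). UNC5C and SLIT2 had estimates of opposite sign in KELLY and IMR-32, while those of ROBO1 and SLIT3 differed in size. In IMR-32 itself neither SLIT2 (adjusted p = 0.0651) nor SLIT3 (0.398) was called. The SLIT2 difference, the ROBO1 difference between SK-N-DZ and IMR-32 and the SLIT3 difference between SK-N-DZ and KELLY were lost in some alternatives, as given above.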

How the results depend on the processing

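ROBO1, ROBO2 and SLIT3 in KELLY and SK-N-DZ kept their direction and their calls under all 11 alternatives run for each. Of the recomputed values of single genes, these included, 660 kept direction and side of the threshold, 60 kept direction but were no longer called, 2 were newly called and 6 reversed. None of the reversed ones was called: without SMARCA4-mAID ethanol replicate 1, SLIT2 (-0.27) and UNC5C (-0.03) after auxin; without auxin replicate 1, NTN4 (-0.18); without auxin replicate 2, ROBO2 (-0.51) and UNC5C (-0.70); and without SK-N-DZ BRM014 replicate 1, SLIT2 in SK-N-DZ (-0.039). Leaving out single libraries gave -0.27 to 0.42 for SLIT2, -0.51 to 0.96 for ROBO2, -0.18 to 0.64 for NTN4 and -0.70 to 0.51 for UNC5C after auxin, and -0.039 to 0.30 for SLIT2 in SK-N-DZ. In a fit that leaves a group 1 library, that library is assumed to vary like the other groups, and the count of called genes falls with fewer samples.

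Leaving out single libraries gave 904 to 1085 called genes (1650 with all) and 0 to 1 guidance genes (3) for BRM014 in IMR-32, 859 to 1151 (1485) and 3 to 4 (5) for the KELLY comparison, 1614 to 1856 (2498) and 3 to 5 (5) for that of SK-N-DZ, and 124 to 139 (281) and 0 to 0 (0) after auxin. For differences of effects it gave 276 to 384 (422) and 2 to 3 (3) for KELLY minus IMR-32, 221 to 295 (336) and 1 to 2 (2) for SK-N-DZ minus IMR-32, 318 to 423 (501) and 1 to 2 (2) for SK-N-DZ minus KELLY, and 131 to 174 (250) for BRM014 in IMR-32 minus auxin. For vehicle levels it gave 2 to 4 guidance genes (5) for SK-N-DZ against IMR-32, and 367 to 495 genes (792) and 1 to 2 guidance genes (2) for SMARCA4-mAID against IMR-32. Fitting only the 4 libraries of the degron line gave 513 genes and 1 guidance gene, UNC5A. The adjustment for GC share and length, chosen after seeing the data, gave 3 guidance genes in KELLY and 1 for SK-N-DZ minus KELLY.

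Over 6241 well-counted genes replicate numbers did not pair the libraries: same-numbered deviations correlated at -0.04 to 0.014. Genes with few counts were not covered, and NTN1 in KELLY had counts only in replicate 2. The no-feature share in KELLY was also higher in replicate 2, at 54.9% against 51.2% with BRM014 and 55.6% against 48.5% with DMSO. A replicate block gave 3 guidance genes for IMR-32, 5 each for KELLY and SK-N-DZ and 0 after auxin, and it changed no call. Scaling by library totals moved the median of all genes from 0.01 to 0.17 for KELLY against IMR-32 and from 0.03 to 0.17 for SK-N-DZ against IMR-32. CPM with TMM factors moved 11 of 72 levels by more than the spread of the group. Depth limits NTN1, NTN4, DCC, SLIT1 and UNC5A, where a library often had no count.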
